A study of Mus musculus with 12 samples.

Results

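A set of 9 genes that carry, make, bind or answer to retinoids was read in single-cell libraries of mouse mammary gland, in 4 fibroblast subsets gated by marker genes. The members were Rbp4, Stra6, Aldh1a1, Aldh1a2, Aldh1a3, Crabp1, Crabp2, Rarb and Rarres2, found by symbol, 1 entry each, among the 27998 genes that all 12 libraries listed. Female C57BL/6J mice, 43 weeks old at harvest, had received 4-vinylcyclohexene diepoxide (VCD) at 160 mg/kg/day, which depletes ovarian follicles and so models menopause, and then estradiol (E2), E2 with progesterone (P4) or neither. The Intact group had no VCD. VCD_Vehicle had sesame oil alone, VCD_E2 had 1 µg E2 per animal per day for 1 week, VCD_E2_P4 had the same E2 with 1 mg P4 per animal per day, and VCD_E2_ICI had the same E2 with a single injection of 5 mg ICI, an estrogen receptor antagonist and degrader. The same 3 hormone states were repeated in mice fed a mixture of polybrominated diphenyl ethers (PBDEs), at 0.05 mg/kg/day of PBDE-47 for 20 weeks (VCD_Low_PBDE, VCD_Low_E2, VCD_Low_E2_P4) or at 1 mg/kg/day of PBDE-47 for 1 week (VCD_High_PBDE, VCD_High_PBDE_E2, VCD_High_PBDE_E2_P4), so the dose of PBDE and its duration cannot be told apart. The other groups ate matched food with DMSO. The labels do not explain VCD_Vehicle_NormEnv, a further VCD group without hormone. Each group was 1 library, and the number of animals behind it was not given in the sources used here.

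Vitamin A travels in blood as retinol bound to the carrier Rbp4, and the membrane receptor Stra6 passes retinol from that carrier into cells. Inside, retinol is oxidised to retinal by alcohol and retinol dehydrogenases, and the retinaldehyde dehydrogenases Aldh1a1, Aldh1a2 and Aldh1a3 oxidise retinal to retinoic acid. Crabp1 and Crabp2 bind retinoic acid in the cytoplasm, Crabp2 handing it to nuclear receptors, and Cyp26 enzymes break it down. Rarb is a nuclear retinoic acid receptor and itself a classical retinoic acid target gene, as are Stra6 and the Cyp26 genes. Rarres2 encodes chemerin, a secreted chemoattractant and adipokine named for its induction by a synthetic retinoid.

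The members lie on separate chromosomes or well apart. By GENCODE M21 on GRCm38, Rbp4 is at chr19:38116629-38125281, minus strand, and Stra6 at chr9:58063788-58153996, plus strand. The 3 dehydrogenase genes are Aldh1a1 at chr19:20492715-20643465, plus strand, Aldh1a2 at chr9:71215789-71296243, plus strand and Aldh1a3 at chr7:66390890-66427517, minus strand. Crabp1 is at chr9:54764748-54773110, plus strand, and Crabp2 at chr3:87948666-87953376, plus strand. Rarb is at chr14:16430839-16819156, minus strand, with exons that overlap Top2b and Gm48162 on the other strand. Rarres2 is at chr6:48569696-48572789, minus strand, with an exon overlapping Lrrc61 on the other strand. In the last 500 bases of their transcripts, from which 3′ libraries read, Aldh1a1 shared 8.18% of its 50-base words with Aldh1a7, and Aldh1a3 shared 3.08% with 57 other genes. The other 7 members shared none.

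RefSeq gives 11 promoter windows on GRCm38.p6 (250 bases before to 50 after a start) for Crabp1, Stra6, Aldh1a1, Aldh1a2, Rarb and Rbp4. That of Rarb is printed because it alone matched a direct repeat among those searched for, of a kind retinoic acid receptors bind. Its 250 bases before the start span chr14:16575477-16575726 on the minus strand, inside the Rarb gene, and the repeat, in capitals, starts 52 bases before the transcription start.
Rarb promoter, 5′ to 3′: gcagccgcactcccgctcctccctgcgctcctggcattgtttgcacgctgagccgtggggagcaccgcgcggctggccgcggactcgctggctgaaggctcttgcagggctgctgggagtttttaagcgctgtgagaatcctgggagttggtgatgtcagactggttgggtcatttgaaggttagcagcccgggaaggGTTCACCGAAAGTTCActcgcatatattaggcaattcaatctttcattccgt
The repeat matched the letters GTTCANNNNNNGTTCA, searched on both strands, which were in 25 of 32851 promoter windows (0.0761%). The letters GGTCANNNNNNGGTCA (0.10% of windows) and the estrogen response element GGTCANNNTGACC (0.0700%) were in no window of a member.

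The libraries held 41737881 to 109224969 unique molecular identifiers (UMIs, each standing for 1 captured RNA molecule) and 58620 barcodes in all, of which 46257 cells passed the filters. Fibroblasts made up 31430 of these. A further 7207 cells scored as fibroblasts were left out because they held a UMI of any of 6 genes of other cell types. Gates on 6 markers each held 10660 cells in the Dpp4/Pi16 gate, 6122 in the Fabp4/Lpl gate, 3894 in the Tnc/Mfap4 gate and 3790 in the Gdf10/F3 gate, and left 6964 fibroblasts ungated. No member is a gate marker. A gate cut from a score is a range rather than a type, and 3649 fibroblasts (11.6%) lay near a cut. In the Tnc/Mfap4 gate the markers of the Fabp4/Lpl gate were also present, at a median of 40.0 UMIs per cell beside 33 of its own. Of its own markers, Tnc had a UMI in 39.7% of its cells, Mfap4 in 42.0%, Scg3 in 75.7%, Penk in 83.0%, Enpp2 in 95.3% and Srpx in 96.6%. Some barcodes recurred in more than 1 library (1861 barcodes, with 458 fibroblasts carrying one), up to 185 between VCD_E2 and VCD_Low_PBDE. The recurrence was uneven. Pairs among Intact, VCD_Vehicle, VCD_E2, VCD_E2_P4 and VCD_Low_PBDE shared 95 to 185. VCD_Low_E2 and VCD_Low_E2_P4 shared 84, and pairs among VCD_Vehicle_NormEnv, VCD_High_PBDE and VCD_E2_ICI 27 to 35. All other pairs shared at most 20. Levels are given in CPM, the member's UMIs per 1000000 UMIs of all cells of that gate in that library. A UMI counts the 3′ end of a molecule, so CPM is not scaled to gene length and is compared here within a gene only.

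The members differed in level between the gates. Aldh1a3 was a gene of the Dpp4/Pi16 gate, Crabp1 and Stra6 were genes of the Tnc/Mfap4 gate, Rbp4 was low in the Dpp4/Pi16 gate alone, and Rarres2 was high in all 4. Levels in each gate were set against the average of the 3 remaining gates in a quasi-likelihood test (edgeR) over 48 sums of 12 libraries by 4 gates. Of 8 members tested, 7 passed an adjusted p of 0.05 in the Dpp4/Pi16 gate, 8 in the Fabp4/Lpl gate, 7 in the Tnc/Mfap4 gate and 7 in the Gdf10/F3 gate. Of all genes tested, 72.4%, 61%, 59.6% and 51.2% did so in these gates, so passing was common. Crabp2 was too low to be tested in any gate. Stra6 and Crabp1 were low outside the Tnc/Mfap4 gate and Aldh1a2 outside the Gdf10/F3 gate, and each entered this fit mainly through that gate. Their calls of a lower level in the other gates are therefore not read as results. The 4 gates' level differences of a gene sum to 0, so its calls in different gates are not separate from each other.

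Among the genes of retinol carriage and uptake, Rbp4, the plasma retinol carrier, ran from 1.86 to 5.28 CPM (median 4.17) over the 12 libraries of the Dpp4/Pi16 gate. The other gates overlapped each other, at 17.7 to 59.8 CPM in the Tnc/Mfap4 gate, 20.5 to 53.5 CPM in the Gdf10/F3 gate and 9.55 to 54.9 CPM in the Fabp4/Lpl gate, and every library of them was above every library of the Dpp4/Pi16 gate. The log2 difference of the Dpp4/Pi16 gate from the other 3 was -3.03 ± 0.18 (SE), edgeR adjusted p = 4.1e-18. Stra6, the retinol receptor, ran from 3.79 to 112 CPM (median 35.3) over the libraries of the Tnc/Mfap4 gate. In the other 3 gates no library exceeded 2.51 CPM and the ranges overlapped. Ungated fibroblasts held 7.17 CPM over all libraries, beside 44.6 CPM in the Tnc/Mfap4 gate. The log2 difference of the Tnc/Mfap4 gate was 6.70 ± 0.20 (SE), edgeR adjusted p = 6.6e-27.

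Of the 3 enzymes that make retinoic acid, Aldh1a3 and Aldh1a1 both had their highest median in the Dpp4/Pi16 gate, and Aldh1a2 was close to 0 in every gate. Aldh1a3 ran from 259 to 405 CPM (median 321) in the Dpp4/Pi16 gate, where every library was above all libraries of the other gates (5.61 to 30.2 CPM in the Gdf10/F3 gate, 1.60 to 17.1 in the Tnc/Mfap4 gate and 1.2 to 11.0 in the Fabp4/Lpl gate, ranges that overlapped). Its log2 difference there was 5.72 ± 0.12 (SE), edgeR adjusted p = 7.3e-33, and its share of cells with a UMI was 89.9%, beside 2.76% of immune cells. Aldh1a1 was graded, from 75.2 to 147 CPM (median 116) in the Dpp4/Pi16 gate through 52.8 to 120.0 CPM in the Gdf10/F3 gate and 37.0 to 70.0 CPM in the Tnc/Mfap4 gate to 20.2 to 39.4 CPM in the Fabp4/Lpl gate. Each neighbouring pair in that order overlapped over the libraries, and the Dpp4/Pi16 gate overlapped neither the Tnc/Mfap4 nor the Fabp4/Lpl gate. The log2 differences ran from 1.22 ± 0.08 (Dpp4/Pi16 gate) to -1.44 ± 0.10 (Fabp4/Lpl gate). Aldh1a2 was close to 0 in fibroblasts, at 3.06 CPM over all libraries in the Gdf10/F3 gate, at most 0.566 CPM in the other gates and 1.09 CPM in ungated fibroblasts.

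Crabp1, the binding protein found in mesenchyme of several tissues, ran from 39.3 to 157 CPM (median 103) in the Tnc/Mfap4 gate and no more than 6.11 CPM in any library of the other gates, a log2 difference of 6.99 ± 0.17 (SE), edgeR adjusted p = 1.4e-29. Ungated fibroblasts held Crabp1 at 8.99 CPM over all libraries, beside 104 CPM in the Tnc/Mfap4 gate. Crabp2 stayed at 1.14 CPM in the Tnc/Mfap4 gate and at most 0.417 CPM in the other 3 gates, over all libraries, and at 1.29 CPM in ungated fibroblasts. In the Tnc/Mfap4 gate a single cell held 39 of its 66 UMIs. The receptor gene Rarb stood at 8.15 to 19.5 CPM in the Dpp4/Pi16 gate and at 1.68 to 29.0 CPM in the Tnc/Mfap4 gate, overlapping ranges, with log2 differences of 1.40 ± 0.14 and 0.93 ± 0.17 from the other 3 gates. Its ranges in the Gdf10/F3 gate (2.17 to 8.48 CPM) and the Fabp4/Lpl gate (1.30 to 3.95 CPM) had lower maxima. Both overlapped the range of the Tnc/Mfap4 gate, and the first also that of the Dpp4/Pi16 gate. Rarres2, the chemerin gene, was present throughout, with medians of 1628 CPM in the Tnc/Mfap4 gate, 1560 in the Fabp4/Lpl gate, 1160 in the Gdf10/F3 gate and 1056 in the Dpp4/Pi16 gate. Neighbours in that order overlapped, and the log2 differences from the other gates, 0.37 ± 0.12 in the Fabp4/Lpl gate and -0.36 ± 0.13 in the Dpp4/Pi16 gate, were small beside those of Stra6 or Crabp1.

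**Figure D1:**
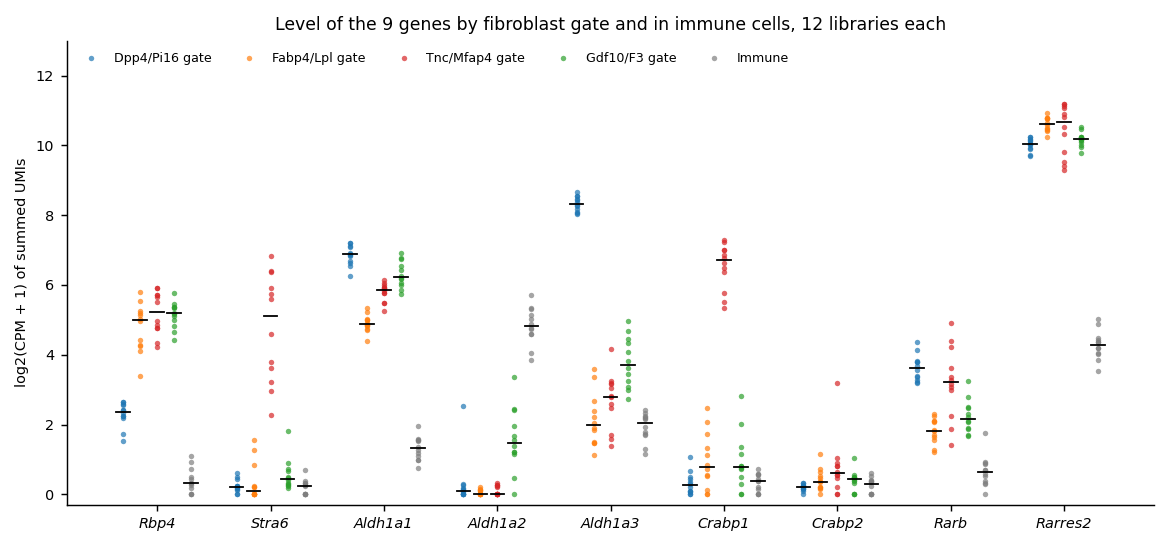
Level of each of the 9 members (CPM + 1, log axis) in the 4 fibroblast gates and immune cells, with 1 point per library (12 per class) and a bar at the median. Aldh1a3 sits at 259 CPM or more in the Dpp4/Pi16 gate and at no more than 30.2 CPM in the other fibroblast gates, Crabp1 and Stra6 stand out in the Tnc/Mfap4 gate, and Aldh1a2 is highest in immune cells.

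Under E2, the Tnc/Mfap4 gate held the most members that passed the test, 4, of the 4 gates. Stra6 and Crabp1 rose, Rarb and Rarres2 fell, and Aldh1a1, Aldh1a3 and Rbp4 did not pass the test (log2 fold changes Aldh1a1 -0.27 ± 0.10, Aldh1a3 0.60 ± 0.46 and Rbp4 -0.26 ± 0.29, ± SE). These were 4 of 7 members tested, beside 31.6% of all genes tested in this gate that passed. The contrast set the mean of the 3 E2 and 3 E2 + P4 libraries against the 3 VCD libraries without hormone, with the PBDE level as a term, in edgeR's quasi-likelihood test. The 9 libraries are replicates only in that layout, with 4 residual degrees of freedom. Fewer cells of a state, less RNA of a gene per cell and more of all other RNA per cell cannot be told apart from CPM within a gate. Crabp2 was too low for this fit in every gate, as were Aldh1a2 in the Tnc/Mfap4, Fabp4/Lpl and Dpp4/Pi16 gates, Stra6 in the Gdf10/F3 and Dpp4/Pi16 gates and Crabp1 in the Dpp4/Pi16 gate.

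Stra6 was at 8.40, 6.77 and 3.79 CPM without hormone (VCD_Vehicle, VCD_Low_PBDE and VCD_High_PBDE, in that order). It was at 47.5, 58.8 and 52.5 CPM with E2 (VCD_E2, VCD_Low_E2 and VCD_High_PBDE_E2). With E2 + P4 it was at 112, 82.5 and 83.8 CPM (VCD_E2_P4, VCD_Low_E2_P4 and VCD_High_PBDE_E2_P4). The 3 hormone states of the layout did not overlap. The log2 fold change with E2 was 3.31 ± 0.19 (SE), edgeR adjusted p = 2.2e-06. The share of cells with a Stra6 UMI was 1.53 to 4.22% without hormone, 28.9 to 34.0% with E2 and 33.8 to 63.4% with E2 + P4, beside 0.179% of immune cells over all libraries (median UMIs 7387 per immune cell and 12910 in the gate). With each cell thinned to 5000 UMIs these shares were 1.14 to 3.49%, 13.8 to 18.3% and 22.9 to 33.1%, and the 3 states did not overlap, while the shares before thinning overlapped between E2 and E2 + P4. Thinning left out 131 cells without hormone, 25 with E2 and 94 with E2 + P4 that held fewer UMIs. Within the 3 PBDE levels the log2 ratio of E2 to no hormone, on CPM + 1, was 2.37 to 3.48, higher in 3 of 3.

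The groups outside that layout were 1 library each, so their Stra6 values carry exact Poisson 95% intervals for counting error only and no test. VCD_E2_ICI, given the receptor antagonist with E2, had 12.8 CPM (interval 9.30 to 17.1), against 47.5 CPM (interval 40.9 to 54.9) in VCD_E2. VCD_Vehicle_NormEnv had 11.3 CPM (interval 7.75 to 16.0) and VCD_Vehicle 8.40 CPM (interval 6.33 to 10.9). Intact mice, with their own ovarian hormones, had 23.1 CPM (interval 19.7 to 27.0), above the 4 VCD libraries without hormone and VCD_E2_ICI and below the 6 libraries given E2 without ICI.

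Rarb, the retinoic acid receptor whose promoter repeat is shown, was at 29.0, 20.0 and 11.4 CPM without hormone, in the same order of libraries. It was at 6.94, 7.91 and 7.46 CPM with E2 and at 2.69, 3.76 and 1.68 CPM with E2 + P4. The 6 layout libraries with hormone were below the 3 without, and the log2 fold change with E2 was -2.19 ± 0.22 (SE), edgeR adjusted p = 6.1e-05. Rarb stood at 17.6 CPM in VCD_E2_ICI, 9.21 CPM in VCD_Vehicle_NormEnv and 8.72 CPM in Intact, and the latter pair lay between the E2 libraries and the 3 libraries without hormone.

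Rarres2 was at 2141, 2341 and 1784 CPM without hormone. With E2 it was at 1279, 1472 and 890.1 CPM, and with E2 + P4 at 627, 728 and 683 CPM. The 3 states of the layout did not overlap, and the log2 fold change with E2 was -1.27 ± 0.11 (SE), edgeR adjusted p = 2.2e-05. In VCD_E2_ICI the chemerin gene stood at 2227 CPM, in VCD_Vehicle_NormEnv at 2332 CPM and in Intact at 1892 CPM, all of which lay above the 6 libraries given E2 without ICI. Crabp1, which holds retinoic acid in the cytoplasm, was at 98.4, 44.3 and 39.3 CPM without hormone. It was at 81.7, 151 and 108 CPM with E2 and 157, 128 and 87.9 CPM with E2 + P4, and the states overlapped because VCD_Vehicle was above VCD_E2 and VCD_High_PBDE_E2_P4. Its log2 fold change was 0.95 ± 0.27 (SE), edgeR adjusted p = 0.0196. Crabp1 stood at 53.6 CPM in VCD_E2_ICI, 127 CPM in VCD_Vehicle_NormEnv and 114 CPM in Intact, and VCD_Vehicle_NormEnv was thus within the range of the 6 libraries given E2 without ICI. The Crabp1 call with E2 was lost without VCD_E2_P4, VCD_Low_PBDE or VCD_High_PBDE (edgeR adjusted p 0.0518 to 0.139), and with a stricter gate, the matrix-name code as a term or VCD_Vehicle_NormEnv added (edgeR adjusted p 0.0525 to 0.14). Over all fibroblasts without a gate the Crabp1 value was 1.24, edgeR adjusted p = 0.175, and with 1 library left out it ran from 0.65 to 1.44 in the gate. With VCD_Vehicle_NormEnv added as a further library without hormone the Crabp1 value was 0.75, edgeR adjusted p = 0.0549, and Stra6, Rarb and Rarres2 still passed.

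The names of the 12 matrices carry a code whose meaning the sources used here do not give. It is the same in the 3 layout libraries without PBDE and another in the 3 at the high dose, and differs within the low dose, where the library without hormone differs from both with E2. VCD_E2_ICI carries another code than VCD_E2. Recurring barcodes did not follow the code alone. At the high dose VCD_High_PBDE shared 4 barcodes with VCD_High_PBDE_E2 and 2 with VCD_High_PBDE_E2_P4, but 35 with VCD_Vehicle_NormEnv and 27 with VCD_E2_ICI. The fits held no term for this pattern, and its part in the members' values was not tested. Within the 3 PBDE levels the log2 ratio of E2 to no hormone on CPM + 1 was -1.92 to -0.55 for Rarb and -1.0 to -0.67 for Rarres2 in the Tnc/Mfap4 gate, lower in 3 of 3 for each. With the code as a term, the E2 calls of Stra6, Rarb and Rarres2 were made again, and that of Crabp1 was not (0.65, edgeR adjusted p = 0.14). The same term ended the E2 calls of Aldh1a1 in the Dpp4/Pi16 gate (0.50, edgeR adjusted p = 0.088), Rbp4 there (0.80, edgeR adjusted p = 0.204) and Crabp1 in the Fabp4/Lpl gate (1.85, edgeR adjusted p = 0.155).

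**Figure D2:**
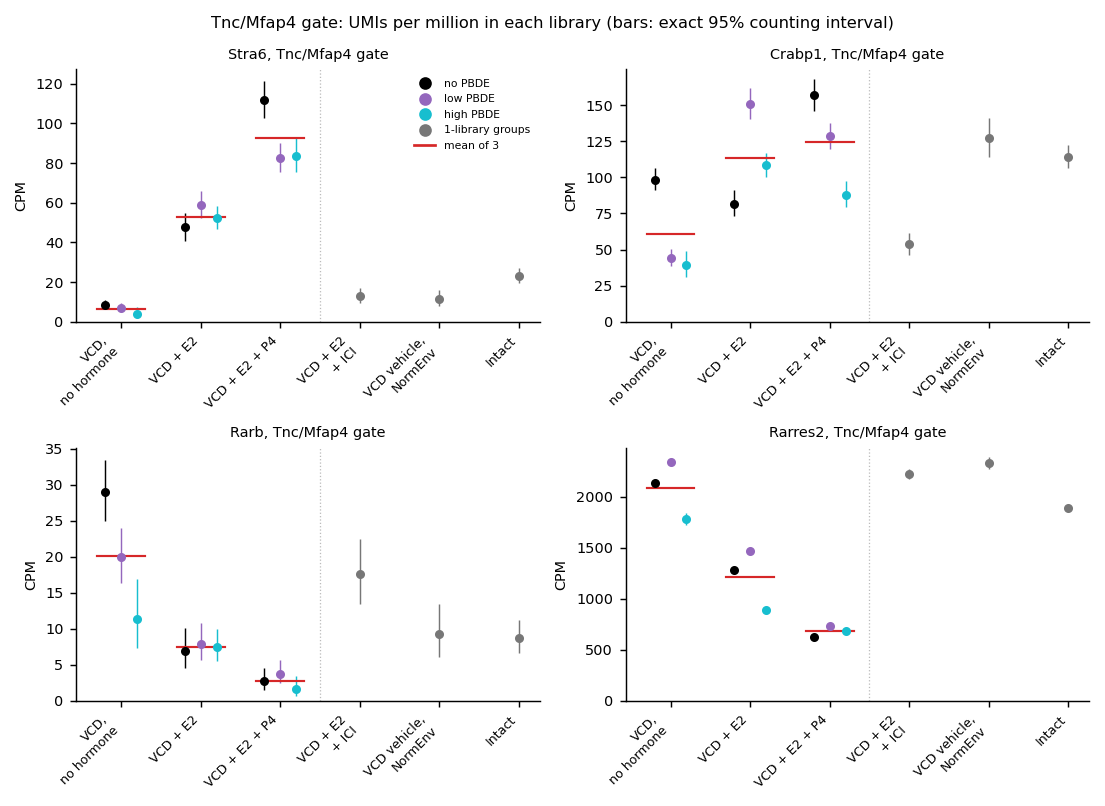
Levels of members in the Tnc/Mfap4 gate (CPM) in each of the 12 libraries, grouped by hormone state and marked by PBDE level, with exact Poisson 95% intervals (counting error only). In the 9 layout libraries Stra6 separates the 3 hormone states upwards (at most 8.40 CPM without hormone, at least 47.5 with E2), and Rarb and Rarres2 separate them downwards.

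Other measures of the Tnc/Mfap4 gate moved with hormone too. Its own 6 markers summed to 2883 to 3160 CPM without hormone and 2011 to 2650 CPM in the 6 libraries with E2, and its cells held a median of 8904 to 10447 UMIs without hormone and 16728 to 26758 with E2, neither overlapping. The 6 markers of the Fabp4/Lpl gate moved the other way in these cells, from 2817 to 3048 CPM without hormone to 3589 to 4080 CPM with E2, also without overlap, and stood at 3878 CPM in VCD_E2_ICI and 3765 CPM in VCD_Vehicle_NormEnv. Those of the Gdf10/F3 gate were at 476, 640 and 567 CPM without hormone, 334, 386 and 563 CPM with E2 and 375, 330 and 334 CPM with E2 + P4. Those of the Dpp4/Pi16 gate were at 761, 793 and 1006 CPM, 628, 554 and 707 CPM, and 609, 906 and 684 CPM. Both overlapped between libraries with and without E2. Pericyte markers (5 of 6 detected, Cspg4 at 0 by the cell filter) summed to 44.5 to 50.2 CPM and 12.1 to 24.3 CPM, and Schwann cell markers (6 of 6 detected) to 17.5 to 21.6 CPM and 10.5 to 14.3 CPM. Markers of immune cells (4 of 6 detected) summed to 4.28 to 4.73 and 2.92 to 10.3 CPM, of endothelium (5 of 6) to 6.22 to 8.52 and 3.34 to 6.24 CPM, of luminal epithelium (5 of 6) to 9.32 to 10.9 and 4.08 to 17.7 CPM, of basal epithelium (5 of 6) to 1.89 to 3.48 and 3.45 to 23.7 CPM and of adipocytes (4 of 6) to 0 to 0.305 and 0 to 0.962 CPM. The part of these in the members' values was not tested. Without any gate, over all fibroblasts, Stra6 (2.73 ± 0.31), Rarb (-0.97 ± 0.08) and Rarres2 (-0.32 ± 0.07) kept these directions on the log2 scale and passed the test, as did Aldh1a1 (0.58 ± 0.12), 4 of 9 members against 18.3% of all genes.

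In the Dpp4/Pi16 gate, Aldh1a1 and Rbp4 rose and Rarb fell with E2. These were 3 of 5 members tested, against 9.91% of all genes tested there. Aldh1a1, an enzyme of retinoic acid synthesis, was at 102, 75.2 and 92.6 CPM without hormone. It was at 136, 136 and 147 CPM with E2 and 118, 112 and 147 CPM with E2 + P4, so the 6 libraries with E2 were above the 3 layout libraries without hormone. The log2 fold change was 0.55 ± 0.09 (SE), edgeR adjusted p = 0.012, and without VCD_Low_PBDE the edgeR adjusted p was 0.0862. Aldh1a1 stood at 98.9 CPM in VCD_E2_ICI, 119 in VCD_Vehicle_NormEnv and 114 in Intact, and VCD_Vehicle_NormEnv, without hormone, was thus above VCD_E2_P4 and VCD_Low_E2_P4.

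Rarb in the Dpp4/Pi16 gate was at 19.5, 12.9 and 16.4 CPM without hormone. With E2 it was at 10.8, 9.51 and 8.26 CPM and with E2 + P4 at 13.2, 8.73 and 9.22 CPM, a small overlap in which VCD_E2_P4 was above VCD_Low_PBDE. Outside the layout Rarb stood at 12.8 CPM in VCD_E2_ICI, 11.7 CPM in VCD_Vehicle_NormEnv and 8.15 CPM in Intact, so VCD_Vehicle_NormEnv, without hormone, was below VCD_E2_P4, and Intact was below every other library. The log2 fold change was -0.71 ± 0.10 (SE), edgeR adjusted p = 0.00886. Rbp4, low in this gate, was at 3.54, 2.28 and 1.86 CPM without hormone, 5.28, 4.36 and 4.35 CPM with E2 and 3.72, 5.28 and 4.95 CPM with E2 + P4, with a log2 fold change of 0.88 ± 0.21 (SE), edgeR adjusted p = 0.0415. That call was lost when any 1 of 7 libraries was left out (VCD_E2, VCD_Low_PBDE, VCD_Low_E2, VCD_Low_E2_P4, VCD_High_PBDE, VCD_High_PBDE_E2 or VCD_High_PBDE_E2_P4), with an edgeR adjusted p of 0.0601 to 0.198, and with a stricter gate, no negative selection or the matrix-name code as a term (edgeR adjusted p 0.0572 to 0.204). Over all fibroblasts without a gate the Rbp4 value was 0.58, edgeR adjusted p = 0.132. Rbp4 stood at 3.99 CPM in VCD_E2_ICI, 3.72 CPM in VCD_Vehicle_NormEnv and 4.96 CPM in Intact. The markers of the Fabp4/Lpl gate, where Rbp4 is higher, moved with it in these cells. They summed to 354, 237 and 277 CPM without hormone, 412, 390.3 and 316 CPM with E2 and 446, 469.8 and 452 CPM with E2 + P4, higher with E2 at each PBDE level, with an overlap of VCD_Vehicle and VCD_High_PBDE_E2, and their part in the Rbp4 values was not tested. Aldh1a3, the enzyme at its highest level in this gate, gave -0.13 ± 0.14 (SE), edgeR adjusted p = 0.562, and Rarres2 0.07 ± 0.09 (SE), edgeR adjusted p = 0.632.

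The markers of the Fabp4/Lpl gate include fatty acid handling genes. In this gate the retinol carrier Rbp4 and the binding protein Crabp1 rose in the E2 contrast, which pools the E2 and E2 + P4 libraries. These were 2 of 7 members tested, against 11.1% of all genes. Rbp4 was at 20.6, 9.55 and 16.2 CPM without hormone. It was at 45.2, 37.0 and 30.1 CPM with E2 and 34.5, 35.6 and 54.9 CPM with E2 + P4, with no overlap in the layout between libraries with and without E2. The log2 fold change was 1.32 ± 0.22 (SE), edgeR adjusted p = 0.00488. Rbp4 stood at 18.1 CPM in VCD_E2_ICI and 18.5 CPM in VCD_Vehicle_NormEnv, so this library given E2 with ICI and this one without hormone were both within the range of the layout libraries without hormone, and at 31.3 CPM in Intact, within the range of the layout libraries with E2. Crabp1 rested on few molecules here, 7, 1 and 0 UMIs without hormone, 7, 10 and 3 with E2 and 32, 63 and 6 with E2 + P4. Its mean was 0.245 CPM without hormone, 0.917 CPM with E2 and 3.36 CPM with E2 + P4. The libraries with E2 alone overlapped those without hormone, and those with E2 + P4 lay above both, so most of the rise lay in the latter. The log2 fold change of the pooled contrast was 2.61 ± 0.61 (SE), edgeR adjusted p = 0.0237. This call was lost without VCD_Low_PBDE, VCD_Low_E2, VCD_Low_E2_P4 or VCD_High_PBDE (edgeR adjusted p 0.0524 to 0.143), and with a stricter gate, the cells of highest UMIs removed or the matrix-name code as a term (edgeR adjusted p 0.0735 to 0.4). The value ran from 1.85 to 4.78 with 1 library left out, highest without VCD_Vehicle, and was 1.34 with the stricter gate. The markers of the Tnc/Mfap4 gate, where Crabp1 is high, summed in these cells to 543, 591 and 682 CPM without hormone, 589.8, 593 and 854 CPM with E2 and 675, 706 and 792 CPM with E2 + P4. They were higher with E2 at each PBDE level, with overlapping ranges, and their part in the Crabp1 values was not tested. The other members tested did not pass, with Aldh1a1 0.04 ± 0.10, Aldh1a3 0.50 ± 0.30, Rarb -0.76 ± 0.30 and Rarres2 -0.15 ± 0.08 (log2 ± SE), and Stra6 had 2, 0 and 0 UMIs without hormone.

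In the Gdf10/F3 gate none of 7 members tested passed with E2, against 3.08% of all genes, and 1 of the 7, Aldh1a1, had an unadjusted p under 0.05. DESeq2 called 1 (Aldh1a1). Aldh1a1 was at 64.9, 62.8 and 52.8 CPM without hormone, 93.0, 106 and 109 CPM with E2 and 71.3, 72.2 and 120.0 CPM with E2 + P4. Every library with E2 was above the 3 layout libraries without hormone, and the log2 fold change was 0.66 ± 0.16 (SE), edgeR adjusted p = 0.0538. The other members tested gave Aldh1a3 -0.06 ± 0.21, Rbp4 0.17 ± 0.22, Rarb -0.65 ± 0.32 and Rarres2 -0.23 ± 0.14 (log2 ± SE), while Aldh1a2 had 18, 0 and 1 UMIs without hormone, 14, 14 and 3 with E2 and 62, 28 and 3 with E2 + P4. Crabp1 had 5, 4 and 0 UMIs without hormone, 0, 5 and 7 with E2 and 5, 39 and 1 with E2 + P4. In the Dpp4/Pi16, Fabp4/Lpl and Gdf10/F3 gates the summed own markers, the median UMIs per cell and the gate's share of fibroblasts overlapped between libraries with and without E2. The own markers of the Fabp4/Lpl gate were still higher with E2 at each PBDE level. They summed to 9643, 10973 and 10191 CPM without hormone, 14866, 13829 and 14051 CPM with E2 and 10764, 11786 and 14924 CPM with E2 + P4. The overlap was VCD_E2_P4 below VCD_Low_PBDE, and their part in the members' values was not tested. The Gdf10/F3 gate's share was also higher at each level, at 9.41 to 10.7% without hormone and 9.73 to 15.6% with E2. In the Fabp4/Lpl gate, pericyte markers (5 of 6 detected, Cspg4 at 0) summed to 49.1 to 59.1 CPM without hormone and 24.2 to 46.7 CPM with E2, and endothelial markers (5 of 6, Pecam1 at 0) to 0.272 to 0.827 and 1.17 to 2.86 CPM, neither overlapping, and their part in the members' values was not tested.

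**Figure D3:**
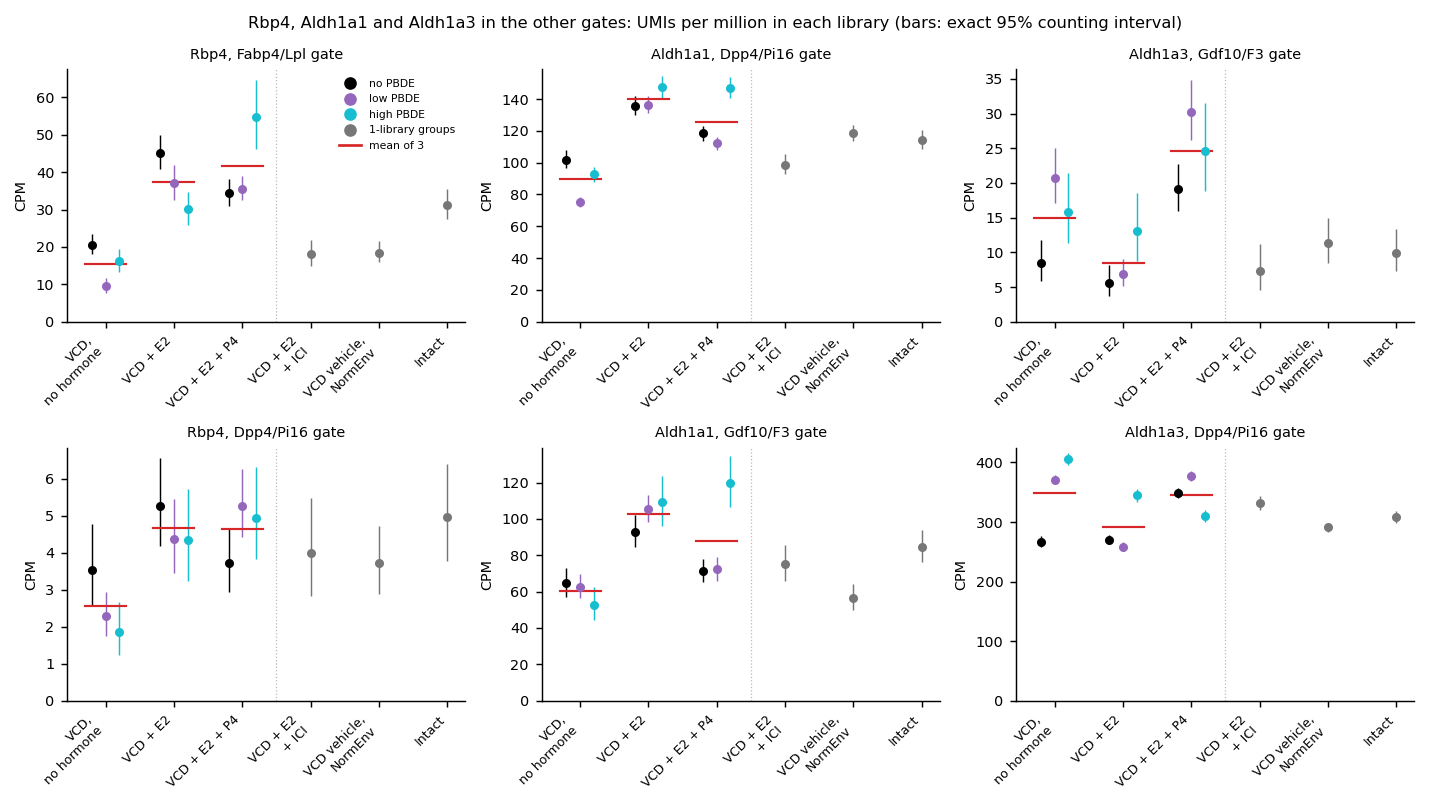
Levels (CPM) of selected members in the Dpp4/Pi16, Fabp4/Lpl and Gdf10/F3 gates in each of the 12 libraries, grouped by hormone state and marked by PBDE level, with exact Poisson 95% intervals (counting error only). Aldh1a1 in the Dpp4/Pi16 gate and Rbp4 in the Fabp4/Lpl gate are higher in all 6 libraries given E2 than in the 3 layout libraries without hormone.

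With P4 added to E2, 4 members changed in the Tnc/Mfap4 gate. Stra6 rose above its E2 level, and Rarb, Rarres2 and Aldh1a1 fell below theirs. These were 4 of 7 tested, beside 1.82% of all genes. The contrast was E2 + P4 against E2, from the same fit, and so shares the E2 libraries with the E2 contrast. Stra6 gave a log2 fold change of 0.78 ± 0.16 (SE), edgeR adjusted p = 0.034, Rarb -1.48 ± 0.32 (SE), edgeR adjusted p = 0.0464, and Rarres2 -0.81 ± 0.13 (SE), edgeR adjusted p = 0.0174. Aldh1a1 was at 59.4, 54.0 and 70.0 CPM with E2 and 37.0, 44.0 and 43.7 CPM with E2 + P4, for -0.56 ± 0.12 (SE), edgeR adjusted p = 0.044. All 4 genes had no overlap between the 3 E2 and the 3 E2 + P4 libraries. The others tested gave Aldh1a3 1.00 ± 0.48, Crabp1 0.06 ± 0.28 and Rbp4 -0.75 ± 0.33 (log2 ± SE) and did not pass. The gate's own markers also moved with P4, at 2251, 2650 and 2478 CPM with E2 and 2011, 2222 and 2248 CPM with E2 + P4, without overlap, and the median UMIs per cell were higher with P4 at each PBDE level, at 17960, 16728 and 17565 with E2 and 26758, 17944 and 23090 with E2 + P4. Their part in the members' values was not tested.

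These P4 calls were close to the threshold and depended on single libraries. The Aldh1a1 call was lost whichever 1 of the 9 libraries was left out (edgeR adjusted p 0.052 to 0.23), and the Rarb call was lost in 8 of 9 cases (0.051 to 0.251), all but without VCD_Vehicle. The Stra6 call was lost without VCD_E2, VCD_E2_P4, VCD_Low_E2, VCD_Low_E2_P4 or VCD_High_PBDE_E2_P4 (0.0737 to 0.184), and the Rarres2 call without VCD_E2, VCD_E2_P4, VCD_Low_E2 or VCD_Low_E2_P4 (0.096 to 0.11). The direction of each stayed the same in all of these. The Aldh1a1 call was also lost with DESeq2 size factors, the DESeq2 test, a looser gate, no negative selection, the matrix-name code as a term or VCD_Vehicle_NormEnv added (adjusted p 0.05 to 0.156), the Rarb call with a filter at 5 CPM, a looser gate, no negative selection, the cells of highest UMIs removed, shared barcodes removed, no PBDE term, the matrix-name code as a term or VCD_Vehicle_NormEnv added (edgeR adjusted p 0.0518 to 0.115), the Stra6 call with a looser gate, no negative selection or the cells of highest UMIs removed (edgeR adjusted p 0.064 to 0.0978) and the Rarres2 call with a looser gate (edgeR adjusted p = 0.055). Over all fibroblasts without a gate, edgeR called none of the 9 members with P4, beside 0.0136% of all genes, and Aldh1a2 (1.96 ± 0.62), Aldh1a3 (0.54 ± 0.22) and Stra6 (0.85 ± 0.29) had an unadjusted p under 0.05 on the log2 scale. There Rarb (0.04 ± 0.10) and Rarres2 (0.09 ± 0.08) turned to values above 0. Aldh1a2 was uneven between libraries, with 4.82 CPM in VCD_E2_P4 against a median of 0.0693 CPM over the 12 libraries of the Dpp4/Pi16 gate.

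Outside that gate, Aldh1a3 rose with P4 in the Fabp4/Lpl and Gdf10/F3 gates, where this retinoic acid enzyme is low. In the Gdf10/F3 gate Aldh1a3 was at 5.61, 6.86 and 13 CPM with E2 and 19.1, 30.2 and 24.6 CPM with E2 + P4, without overlap, and at 8.46, 20.7 and 15.8 CPM without hormone. The log2 fold change was 1.76 ± 0.24 (SE), edgeR adjusted p = 0.038, 1 of 7 members against 0.0697% of all genes. In the Fabp4/Lpl gate Aldh1a3 was at 1.78, 1.79 and 3.66 CPM with E2 and 4.18, 11.0 and 9.34 CPM with E2 + P4, for 1.66 ± 0.35 (SE), edgeR adjusted p = 0.043, 1 of 7 against 2.31%. Both calls were lost without VCD_E2, VCD_E2_P4, VCD_Low_E2, VCD_Low_E2_P4 or VCD_High_PBDE_E2_P4 (edgeR adjusted p 0.103 to 0.264 in the Gdf10/F3 gate and 0.0962 to 0.182 in the Fabp4/Lpl gate). The Gdf10/F3 call was also lost with a stricter gate, no negative selection, shared barcodes removed or no PBDE term (edgeR adjusted p 0.0505 to 0.177), and DESeq2 called no member there. The Fabp4/Lpl call was also lost with a looser gate, a stricter gate, no negative selection, the cells of highest UMIs removed or no PBDE term (edgeR adjusted p 0.0536 to 0.159), and its value ran from 1.10 to 1.95 with 1 library left out. The markers of the Dpp4/Pi16 gate, where Aldh1a3 is high, moved with it. They summed to 735, 1208 and 932 CPM with E2 and 1184, 1419 and 1376 CPM with E2 + P4 in the Gdf10/F3 gate, and to 327, 416 and 434 and 395, 524 and 471 CPM in the Fabp4/Lpl gate, higher with P4 at each PBDE level in both, overlapping in each, and their part in the Aldh1a3 values was not tested. The others tested gave Aldh1a1 -0.20 ± 0.18, Rbp4 0.17 ± 0.25, Rarb 0.51 ± 0.39 and Rarres2 0.15 ± 0.16 in the Gdf10/F3 gate and Aldh1a1 -0.06 ± 0.12, Rbp4 0.07 ± 0.23, Rarb -0.37 ± 0.40 and Rarres2 -0.30 ± 0.09 in the Fabp4/Lpl gate (log2 ± SE). None of these passed, nor did the sparse Aldh1a2 and Crabp1 in the Gdf10/F3 gate (edgeR adjusted p = 0.598 and 0.768) or Crabp1 in the Fabp4/Lpl gate (edgeR adjusted p = 0.0957). In the Dpp4/Pi16 gate none of 5 members tested passed, with 1 (Rarres2) under an unadjusted p of 0.05 and 1 (Rarres2) called by DESeq2, against 0.0551% of all genes. The others gave Aldh1a1 -0.08 ± 0.10, Aldh1a3 0.34 ± 0.16, Rbp4 0.08 ± 0.23 and Rarb 0.18 ± 0.13 (log2 ± SE). Rarres2 there was at 845, 836 and 1068 CPM with E2 and 1207, 1144 and 1219 CPM with E2 + P4, without overlap, for 0.46 ± 0.10 (SE), edgeR adjusted p = 0.208. The Fabp4/Lpl markers in these cells, given above with E2, also had no overlap between E2 and E2 + P4, and their part in the Rarres2 values was not tested. Stra6 in the Fabp4/Lpl gate had 0, 1 and 1 UMIs with E2 and 14, 27 and 2 with E2 + P4, with an edgeR adjusted p of 0.0561.

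**Figure D4:**
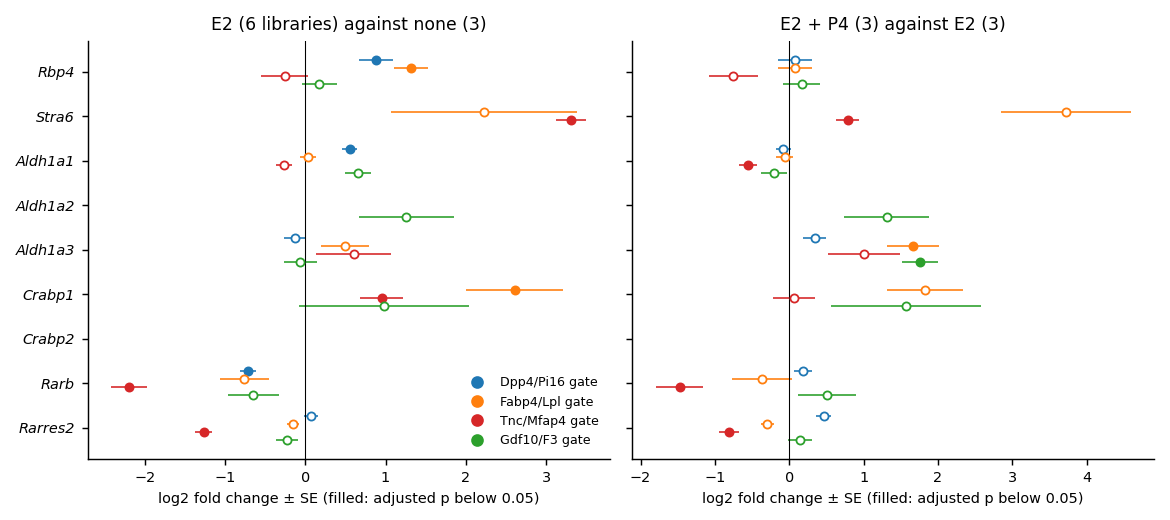
Log2 fold change (point) with its standard error (bar) of each tested member for E2 against no hormone and for E2 + P4 against E2, by fibroblast gate, from edgeR, with filled points for adjusted p below 0.05. Stra6 rises and Rarb and Rarres2 fall in the Tnc/Mfap4 gate in both contrasts.

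Whether a response differed between gates was tested as the interaction of hormone and gate over 36 sums of 9 libraries by 4 gates, each gate against the mean of the other 3. Its E2 effect sets the E2 libraries alone against those without hormone, and its P4 effect E2 + P4 against E2. The E2 contrast within gates, given above, averaged E2 and E2 + P4 libraries, so its values are not those of this test. For E2, 2 of 8 members passed in the Tnc/Mfap4 gate, against 14.7% of all genes, and none in the other gates (unadjusted p under 0.05 for Stra6 in the Dpp4/Pi16 gate, for Aldh1a1, Rbp4 and Rarres2 in the Fabp4/Lpl gate, and for Aldh1a1 and Rbp4 in the Gdf10/F3 gate, with 4.44%, 1.71% and 0.479% of all genes called). In those 3 gates DESeq2 called none, none and 1 (Aldh1a1). The E2 effect on Rarres2 was lower in the Tnc/Mfap4 gate, with a difference of -0.69 ± 0.17 (SE), edgeR adjusted p = 0.0066, on the log2 scale. Within the other 3 gates Rarres2 did not pass in the E2 contrast. For Stra6 the value was 3.16 ± 0.94 (SE), edgeR adjusted p = 0.0238, but Stra6 stood at 0.197, 0.467 and 0.615 CPM in the Dpp4/Pi16, Fabp4/Lpl and Gdf10/F3 gates over all libraries and entered the fit through the Tnc/Mfap4 gate, so no difference in response is read from it. Its call was lost without VCD_Vehicle, VCD_E2 or VCD_Low_E2 (edgeR adjusted p 0.057 to 1). It was also lost with a looser gate (0.81, edgeR adjusted p = 0.758), a stricter gate (2.64, edgeR adjusted p = 0.115), no negative selection (2.00, edgeR adjusted p = 0.125) or without the cells of highest UMIs (3.12, edgeR adjusted p = 0.118). The difference for Rarb, -0.77 ± 0.31 (SE), edgeR adjusted p = 0.0995, did not pass, so a larger fall in the Tnc/Mfap4 gate with E2 alone was not shown. A difference over the E2 and E2 + P4 libraries together was not tested for any member.

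For P4, 2 of 8 members differed in the Tnc/Mfap4 gate (2.26% of all genes) and 2 of 8 in the Dpp4/Pi16 gate (2.36%). None passed in the Fabp4/Lpl gate (0.973%) or the Gdf10/F3 gate (0%), where Stra6 (Fabp4/Lpl) and Rarb and Rarres2 (Gdf10/F3) had an unadjusted p under 0.05 and DESeq2 called no member. Rarres2 differed in opposite directions, with a difference of -0.93 ± 0.17 (SE), edgeR adjusted p = 0.00337 in the Tnc/Mfap4 gate and 0.78 ± 0.17 (SE), edgeR adjusted p = 0.0149 in the Dpp4/Pi16 gate, against the other 3 gates in each case. The 4 gates' differences of a gene sum to 0, so a fall in 1 gate raises the values of the others. The P4 values of Rarres2 within those gates were -0.81 ± 0.13 (SE), edgeR adjusted p = 0.0174, and 0.46 ± 0.10 (SE), edgeR adjusted p = 0.208, and the latter did not pass. Rarb differed in the Tnc/Mfap4 gate by -1.52 ± 0.39 (SE), edgeR adjusted p = 0.0352. Aldh1a3 differed in the Dpp4/Pi16 gate by -1.10 ± 0.26 (SE), edgeR adjusted p = 0.0234, so its P4 value there was below the mean of the other 3 gates, where its level is low. In the Fabp4/Lpl and Gdf10/F3 gates the Dpp4/Pi16 markers were also higher with P4, as given above, and their part in this difference was not tested. The P4 value of Aldh1a3 within the Dpp4/Pi16 gate was 0.34 ± 0.16 (SE), edgeR adjusted p = 0.52. DESeq2 called Rarres2 alone in the Tnc/Mfap4 gate, and the Rarb call was also lost with the cells of highest UMIs removed (edgeR adjusted p = 0.111). The Aldh1a3 call was also lost with a looser gate, a stricter gate, no negative selection or the cells of highest UMIs removed (edgeR adjusted p 0.146 to 0.173). The Rarb call was lost without VCD_E2, VCD_E2_P4, VCD_Low_E2, VCD_High_PBDE_E2 or VCD_High_PBDE_E2_P4, the Aldh1a3 call without VCD_E2, VCD_Low_E2, VCD_Low_E2_P4 or VCD_High_PBDE_E2_P4, and the Rarres2 calls without VCD_E2_P4 or VCD_Low_E2 (Tnc/Mfap4 gate) and without VCD_E2, VCD_E2_P4 or VCD_High_PBDE_E2_P4 (Dpp4/Pi16 gate).

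With PBDE feeding, edgeR called no member in any gate at either dose. Of all genes, it called 0%, 0.0083%, 0% and 0% at the low dose (Dpp4/Pi16, Fabp4/Lpl, Tnc/Mfap4 and Gdf10/F3 gates) and 0.149%, 0.365%, 0.0426% and 0.192% at the high dose. DESeq2 called no member in either. Members with an unadjusted p under 0.05 at the low dose were Rarb (-0.45 ± 0.12) in the Dpp4/Pi16 gate, Aldh1a3 (1.34 ± 0.33) in the Fabp4/Lpl gate and Aldh1a2 (-1.47 ± 0.52) and Aldh1a3 (0.74 ± 0.22) in the Gdf10/F3 gate. At the high dose they were Rarb (-0.39 ± 0.12) in the Dpp4/Pi16 gate, Aldh1a3 (1.04 ± 0.38) and Rarres2 (-0.31 ± 0.09) in the Fabp4/Lpl gate, Crabp1 (-0.68 ± 0.30) and Rarb (-0.73 ± 0.29) in the Tnc/Mfap4 gate and Aldh1a2 (-2.55 ± 0.75) and Aldh1a3 (0.68 ± 0.26) in the Gdf10/F3 gate. These are log2 fold changes with their SE. Rarb in the Dpp4/Pi16 gate stood at 19.5, 12.9 and 16.4 CPM in VCD_Vehicle, VCD_Low_PBDE and VCD_High_PBDE.

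A list of 41 other genes of the retinoid pathway and a list of 11 genes of chemerin signalling or known for retinoid response were read beside the members. In the Tnc/Mfap4 gate edgeR called with E2 3 higher and 6 lower of 22 pathway genes tested, and 4 higher and 2 lower of 11 responsive genes, against 31.6% of all genes. The median log2 fold changes were -0.05 and 0.36, beside -0.02 over all genes tested. Cyp26b1, which degrades retinoic acid, fell (-2.23 ± 0.34 SE, edgeR adjusted p = 0.00072), as did the alcohol dehydrogenase Adh1 (-1.30 ± 0.16 SE, edgeR adjusted p = 0.00021). Rdh10, which makes retinal from retinol, rose (1.08 ± 0.23 SE, edgeR adjusted p = 0.00459), a call lost over all fibroblasts without a gate (0.0047, edgeR adjusted p = 0.974). The retinoid-responsive genes Rarres1 (1.49 ± 0.15 SE, edgeR adjusted p = 5.7e-05) and Cd38 (2.02 ± 0.29 SE, edgeR adjusted p = 0.00049) rose.

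The other gates were read in the same way. With E2 the Dpp4/Pi16 gate had 1 higher and 2 lower of 24 pathway genes and 1 higher and 1 lower of 10 responsive genes, the Fabp4/Lpl gate 2 and 2 of 23 and 1 and 1 of 11, and the Gdf10/F3 gate none of 22 and none of 9 by edgeR. Of all genes, 9.91%, 11.1% and 3.08% were called in these gates. In the Gdf10/F3 gate 3 pathway and 0 responsive genes had an unadjusted p under 0.05, and DESeq2 called 0 and 0. The medians of the pathway list were -0.05, 0.03 and -0.09 there, and of the responsive list -0.17, 0.02 and -0.11. In the Fabp4/Lpl gate Tgm2, a transglutaminase known for retinoid response, rose (1.96 ± 0.26 SE, edgeR adjusted p = 0.00196), as did Fabp5, which can carry retinoic acid to Ppard (1.19 ± 0.17 SE, edgeR adjusted p = 0.00266). Both calls were lost over all fibroblasts without a gate, with Tgm2 at 1.89 (edgeR adjusted p = 0.0527) and Fabp5 at 0.47 (edgeR adjusted p = 0.0836). With P4 the calls were Cyp26b1, lower (-2.21 ± 0.39 SE, edgeR adjusted p = 0.0244), and Tgm2, higher (1.42 ± 0.25 SE, edgeR adjusted p = 0.0244), both in the Fabp4/Lpl gate, where 2.31% of all genes were called, and edgeR called no list gene in the other gates. Unadjusted p-values under 0.05 numbered 2, 7 and 3 in the pathway list and 1, 3 and 0 in the responsive list (Dpp4/Pi16, Tnc/Mfap4 and Gdf10/F3 gates), where DESeq2 called 0, 1 and 0, and 0, 0 and 0. The Cyp26b1 call was lost without VCD_E2, VCD_E2_P4, VCD_Low_E2 or VCD_Low_E2_P4 and with no negative selection (edgeR adjusted p = 0.0751). The Tgm2 call was lost without VCD_E2, VCD_E2_P4, VCD_Low_E2, VCD_Low_E2_P4, VCD_High_PBDE_E2 or VCD_High_PBDE_E2_P4, with a looser gate (0.75, edgeR adjusted p = 0.263) and with no negative selection (0.62, edgeR adjusted p = 0.388), and the Tgm2 value turned to -0.46, edgeR adjusted p = 0.815 over all fibroblasts.

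Likeness of pattern was measured as Pearson's r of log2(CPM + 1) over the 48 sums of library and gate, which share libraries and depth, and is given as a description. The gene most like Stra6 was another member, Crabp1 (r = 0.947), followed by Arhgef7 (0.938) and Pla2g7 (0.927). For Crabp1 the nearest were Pla2g7 (0.973), the gate marker Tnc (0.964) and Igfbp2 (0.947). Aldh1a3 was nearest to Emilin2 (0.974), Sbsn (0.970) and Sec14l1 (0.966), and Aldh1a1 to Rabgap1l (0.927), Rps12 (0.925) and Gda (0.924). Rbp4 was nearest to Adcyap1r1 (0.930), Mmp3 (0.914) and Emp2 (0.910). Rarres2 had looser neighbours, Hfe (0.845), Dnaja1 (0.834) and Sertad1 (0.832). Rarb, Aldh1a2 and Crabp2 averaged under 10 CPM and were not matched. Among members, Aldh1a3 and Rbp4 ran opposite (r = -0.863).

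Within the Tnc/Mfap4 gate, 11.1% of cells held UMIs of both Crabp1 and Stra6, where the product of the separate shares was 6.2%. In the Dpp4/Pi16 gate 69.5% of cells held both Aldh1a1 and Aldh1a3, against a product of 68.0%. Cells of high depth and of different libraries enter both shares, so no test was made. Crabp1 was uneven among cells of the Tnc/Mfap4 gate, where 132 cells with at least 10 UMIs held 49.9% of its UMIs, and the highest cell held 158. For Stra6, 40 such cells held 21.4% of the UMIs, and the highest held 23.

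Outside the fibroblasts, Aldh1a2 was a gene of immune cells, with 31.6 CPM over 6151 cells and a UMI in 9.61% of them. The shares were 1.98%, 0.310%, 0.128% and 0.0817% of the deeper cells of the Gdf10/F3, Dpp4/Pi16, Tnc/Mfap4 and Fabp4/Lpl gates. In immune cells Aldh1a2 ran from 13.4 to 51.5 CPM (median 27.3) over the libraries, all above the fibroblast gates. Luminal epithelial cells, only 177 in all, had Crabp2 at 16.5 CPM and Aldh1a3 at 81.9 CPM. Few cells carried these levels. For Aldh1a3, 10 cells with at least 10 UMIs held 78.1% of its 397 UMIs, up to 99 in a cell, and for Crabp2 2 such cells held 27.5% of 80. Immune cells held Rarres2 at 18.4 CPM, beside at least 627 CPM in every library of every fibroblast gate. Fibroblasts with at least 10 Aldh1a2 UMIs, 3 in the Dpp4/Pi16 gate, 2 in the Gdf10/F3 gate and 5 ungated, were all from VCD_E2_P4.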

How the data were processed

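Single cells of mouse mammary gland were captured with Chromium 3′ v3 chemistry in 12 libraries, 1 per group, and the authors made the deposited UMI counts with Cell Ranger 3.1.0 on mm10, as raw counts per gene and cell barcode. Library totals were 41737881 to 109224969 UMIs, which sets the precision of low genes. Barcodes were kept from 500 genes and 1000 UMIs upwards, and up to 5% mitochondrial UMIs. Cell classes and fibroblast gates were scored from 6 markers each, as mean log expression per 10000 UMIs. A cell class needed a score of at least 1 and a margin of 0.5 over the next class. Gate scores were z-scored over the fibroblasts, and a gate needed at least 0.5 and a margin of 0.5 over the next gate. As in the authors' negative selection, a fibroblast with any UMI of Cspg4, Pecam1, Cd52, Ptprc, Krt14 or Epcam was left out. Doublets were not called, and leaving out the 4% of cells with the most UMIs in each library was an alternative.

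Counts were summed per library and gate and tested over all genes with edgeR 4.0.16 (quasi-likelihood test, TMM scaling, filterByExpr, R 4.3.3, Benjamini-Hochberg adjustment, threshold 0.05), with PBDE level as a term for E2 and P4, hormone as a term for PBDE, and library as a block for gates and differences between gates. Since no label names separate cultures or animals, p-values measure only the spread between these libraries. Intervals cover counting error only. Shares of cells were also computed after thinning to 5000 UMIs per cell. The members, gene lists and markers were chosen with earlier results of these data known. The naming rule covered all 9 members in every comparison, and some members with few UMIs are given by their UMIs or their p-value alone. It also covered at most 8 list genes per contrast past the threshold, and for each member averaging 10 CPM the 3 genes (averaging 20 CPM) of highest Pearson correlation. A list gene past the threshold is not reported here. Alternatives were DESeq2 1.42.0 (size factors or Wald test), other filters and gates, other covariates and each library left out. On simulated counts with 200 genes changed by 1 on the log2 scale, the E2 fit recovered 90% of them in the Tnc/Mfap4 gate and 84.5% in the Gdf10/F3 gate, and the fit of the difference of the E2 effect in the Tnc/Mfap4 gate recovered 62%. These counts had the same spread for every gene and no PBDE effect. The shares hold for that setting and do not give the power for the members.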

Additional observations from a re-analysis of the deposited data

Results flagged for a closer look

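The E2 and P4 responses that differed between a gate and the mean of the other 3, in the interaction test of edgeR, are given as log2 differences. For E2 alone against no hormone they were Rarres2 (-0.69, adjusted p = 0.0066) and Stra6 (3.16, adjusted p = 0.0238) in the Tnc/Mfap4 gate. Stra6 stood at 0.197 to 0.615 CPM in the 3 gates it is set against, so no difference in response is read from its value, which ran from 0.81 to 3.64 over the alternatives. For P4 they were Rarb (-1.52, adjusted p = 0.0352) and Rarres2 (-0.93, adjusted p = 0.00337) in the Tnc/Mfap4 gate, and Aldh1a3 (-1.10, adjusted p = 0.0234) and Rarres2 (0.78, adjusted p = 0.0149) in the Dpp4/Pi16 gate. The 4 gates' differences of a gene sum to 0, so those of Rarres2 with P4 are not separate from each other. Of these, the Rarres2 difference with E2 was made under every alternative run.

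Levels in cells outside the fibroblast comparisons stood above every fibroblast gate for Aldh1a2, at 31.6 CPM in immune cells, and for Crabp2, at 16.5 CPM in luminal epithelial cells. No test was made for either.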

How the results depend on the processing

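No analysis paired by replicate number was possible, because each group is 1 library. Libraries were matched by PBDE level alone, which is a term of the fits. Of the 15 E2 and P4 calls of members, 4 were made under every alternative run, those of Stra6, Rarb and Rarres2 with E2 in the Tnc/Mfap4 gate and of Rarb with E2 in the Dpp4/Pi16 gate. Of the 29 calls of level between gates, 23 were made under every alternative, and of the 6 differences between gates 1 was, that of Rarres2 with E2 in the Tnc/Mfap4 gate. The level calls of a gene in different gates are not separate, since its 4 level differences sum to 0. Over the sums of all fibroblasts without a gate, values turned direction for Rarb (0.038) and Rarres2 (0.089) with P4 and Adh1 (0.15) with E2, each called in the Tnc/Mfap4 gate, and for Tgm2 (-0.46) with P4, called in the Fabp4/Lpl gate. The level of Aldh1a2 in the Fabp4/Lpl gate against the other gates turned to 0.29 without negative selection. The cause was not tested.

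Member calls numbered 9 with E2, 5 with the code of the matrix names as a term and 5 to 9 with a library left out (lowest without VCD_Low_PBDE). With P4 they numbered 6, against 10 with no filter on low counts, 1 with a looser gate, 1 with no negative selection, 3 without the cells of highest UMIs, 3 with no PBDE term and 0 to 6 with a library left out. Level calls numbered 29 with each library left out, but without VCD_E2_P4 the Aldh1a2 call in the Tnc/Mfap4 gate was lost (-1.34, edgeR adjusted p = 0.138). PBDE calls went from 0 to 3 with no filter and stayed at 0 with any library left out. Differences between gates numbered 6, and 2 to 10 with a library left out, with 2 without VCD_E2 and 10 without VCD_High_PBDE_E2.

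Genes called with E2 in the Dpp4/Pi16 gate numbered 1260, against 824 with no PBDE term, 170 with the code as a term and 174 to 1328 with a library left out (lowest without VCD_Low_PBDE). In the Fabp4/Lpl gate they numbered 1336, against 788 with a stricter gate, 644 with the code and 624 to 1208 with a library left out. In the Tnc/Mfap4 gate they numbered 3711, against 2345 with the code and 2247 to 3795 with a library left out. In the Gdf10/F3 gate they numbered 354, against 865 with no filter, 619 with a looser gate, 183 with no negative selection, 223 with no PBDE term, 26 with the code and 25 to 457 with a library left out.

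Genes called with P4 in the Dpp4/Pi16 gate numbered 7, against 108 with the DESeq2 Wald test, 35 with no filter, 3 with a looser gate, 14 with no negative selection, 0 with no PBDE term, 11 with the code and 0 to 17 with a library left out. In the Fabp4/Lpl gate they numbered 279, against 713 with no filter, 79 with no negative selection, 158 with no PBDE term and 16 to 451 with a library left out. In the Tnc/Mfap4 gate they numbered 214, against 642 with no filter, 76 with a looser gate, 128 with no negative selection and 16 to 354 with a library left out. In the Gdf10/F3 gate they numbered 8, against 42 with the DESeq2 Wald test, 224 with no filter, 13 with a mitochondrial limit of 10%, 0 with no negative selection, 2 without the cells of highest UMIs, 0 without shared barcodes (chosen after seeing the data), 0 with no PBDE term, 18 with the code, 3 with VCD_Vehicle_NormEnv added and 0 to 38 with a library left out.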
